A study of Mus musculus with 36 samples.

Results

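The NRF2 antioxidant group described here comprised 10 genes, picked by name from the 55358 genes of the count table: the transcription factor gene Nfe2l2, its inhibitor Keap1, and the target genes Nqo1, Hmox1, Gclc, Gclm, Txnrd1, Srxn1, Slc7a11 and Gsta4. All 10 passed the filter on low counts and were among the 15114 genes tested. Poly(A) RNA was sequenced from mouse keratinocytes, the cells of the epidermis, of 3 genotypes: WT cells with an intact Pkp4 gene (Pkp4-wildtype), PKP4-KO cells (Pkp4-knockout) and Rescue cells (GFP-PKP4-tagged Pkp4-knockout). PKP4 is a plakophilin, an armadillo-repeat protein of cell-cell junctions. Each genotype was grown for 24 h or 72 h (LD and HD in the labels) in low calcium medium (LCM) or in high calcium medium (HCM), in which keratinocytes form junctions and begin to differentiate. This gave 12 groups of 3 libraries, 36 in all. The WT and PKP4-KO keratinocytes were primary cells of newborn pups of the matching genotype, so they came from different animals, and how many pups stood behind each genotype is not given in the sources used here. The Rescue cells were PKP4-KO cells transduced with a lentivirus that carries human PKP4 with an N-terminal EGFP tag, followed by puromycin selection. The effects of PKP4, of transduction and of selection therefore cannot be told apart in the Rescue cells, nor can genotype and the origin of the cells in PKP4-KO against WT. Nothing says whether the 3 libraries of a group came from separate cultures, so the p-values measure the spread between these libraries, which may be technical.

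NRF2, the protein made from Nfe2l2, is the main inducer of antioxidant and detoxification genes. KEAP1 binds NRF2 in unstressed cells and presents it to a CUL3 ubiquitin ligase for degradation, and oxidants or electrophiles that modify KEAP1 let NRF2 accumulate, enter the nucleus and bind antioxidant response elements together with small MAF proteins. Because this switch acts on the protein, the Nfe2l2 and Keap1 transcripts need not follow NRF2 activity, which is usually read from target transcripts. In keratinocytes the pathway is known for protecting the epidermis against ultraviolet light and reactive oxygen species. Several targets answer to other factors as well: Hmox1 is repressed by the heme sensor BACH1, and Slc7a11 is also a target of the amino acid stress factor ATF4.

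The core of the antioxidant response element, TGACNNNGC, was searched on both strands from 250 bases before to 50 bases after the start of each member's canonical transcript. It lay in 3 of the 10 promoters, those of Gclm, Txnrd1 and Srxn1, against 12.5% of 21450 protein-coding promoters of the same length. With the window widened to 1000 bases before the start, 5 of 10 held it, against 30.4% of promoters. The 3 matches are shown because this core is a sequence that NRF2 is known to bind, and a match is a description, not a measured site. Other forms of the element, such as one with G in place of the C in TGAC, were not searched. A promoter without a match may therefore hold another form, and one with a match may hold more. All 3 read on the opposite strand, so the capitals mark the reverse complement of the core. For Gclm and Txnrd1 the 250 bases before the start are given, and for Srxn1, whose match lies after the start, the match with 10 bases on either side (GRCm39, GENCODE transcript starts, plus strand, 5′ to 3′).
Gclm, chr3:122038876-122039125: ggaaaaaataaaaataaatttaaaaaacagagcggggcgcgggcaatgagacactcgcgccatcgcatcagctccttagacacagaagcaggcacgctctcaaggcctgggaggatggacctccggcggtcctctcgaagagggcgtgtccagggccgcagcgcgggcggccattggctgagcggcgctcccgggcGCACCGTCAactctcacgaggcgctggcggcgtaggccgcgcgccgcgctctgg
Txnrd1, chr10:82694763-82695012: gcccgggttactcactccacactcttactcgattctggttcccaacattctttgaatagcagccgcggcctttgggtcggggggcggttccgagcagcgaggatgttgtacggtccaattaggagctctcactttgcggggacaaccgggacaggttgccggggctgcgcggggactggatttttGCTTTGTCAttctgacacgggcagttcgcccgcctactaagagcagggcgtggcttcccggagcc
Srxn1, chr2:151947462-151947490: gcagtgggcaGCTAGGTCAgagtgagaca
Counted from the first transcribed base as 0, the sites lay at -54 to -46 in Gclm, at -65 to -57 in Txnrd1 and at 28 to 36 in Srxn1, and they read TGACGGTGC, TGACAAAGC and TGACCTAGC as the motif is written. In none of the 12 comparisons between genotypes were all 3 genes with a match called in 1 direction.

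The libraries held 13602728 to 22467187 counted reads. Levels are given as CPM, counts scaled to a common library total after adjustment by TMM, the trimmed mean of M-values, whose factors were 0.481 to 0.546 in PKP4-KO at 72 h in HCM and 0.705 to 1.39 elsewhere. Pkp4 itself stood at 33.4 to 76.3 CPM in WT, 6.39 to 14.1 in PKP4-KO and 6.52 to 11.9 in Rescue, and the GFP-PKP4 sequence had 1902 to 15325 counts in Rescue libraries against at most 113 in the others. Keratinocyte markers Krt5 and Krt14 were abundant in all 36 libraries, at no less than 91916 and 253591 counts. Summed fibroblast, melanocyte, immune and endothelial markers reached at most 8.48, 7.55, 7.43 and 5.91 CPM. Krt1 and Krt10, markers of suprabasal cells, were higher and Ivl (involucrin) lower in PKP4-KO than in WT in all 4 culture conditions. In bulk RNA, fewer cells of one state and less RNA per cell cannot be told apart, and the part of this shift in the values below was not tested.

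Libraries also differed in how a gene's level related to its deposited gene length, which matters here because the members range from 1266 bp (Gsta4) to 13922 bp (Slc7a11). Within each library the log2 deviation of every gene from its mean over all libraries was regressed on log2 length. In 7 libraries the slope lay more than 0.1 below both other libraries of the group: WT 24 h HCM replicate 2 (-0.120 per doubling of length), WT 72 h HCM replicate 3 (-0.287), PKP4-KO 24 h HCM replicate 3 (-0.151), PKP4-KO 24 h LCM replicate 1 (-0.174), PKP4-KO 72 h LCM replicate 2 (-0.286), Rescue 24 h LCM replicate 3 (-0.0859) and Rescue 72 h LCM replicate 2 (-0.177). All 3 libraries of PKP4-KO at 72 h in HCM had slopes of -0.465 to -0.413, so there the length trend and the group cannot be told apart. In the 7 libraries that stood apart, Gclc, Gclm, Nfe2l2 and Txnrd1 were the lowest of their group of 3 in 7, and Slc7a11 in 5, while Hmox1 and Nqo1 were the highest in 7, Gsta4 in 5 and Srxn1 in 4. Keap1, which is over 3000 bp long as are the first 5, was instead the highest in 5 and the lowest in 1. Below, Nfe2l2, Keap1, Gclc, Gclm, Txnrd1 and Slc7a11 are called the long members and Nqo1, Hmox1, Srxn1 and Gsta4 the short ones. Results are therefore given where needed with an offset for each library's length trend (called the length offset) and without the 7 libraries that stood apart.

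To compare different genes, CPM was divided by the deposited gene length in kilobases. That length may differ from the length of the transcripts expressed, so such comparisons are rough. Per kilobase, Gsta4 was by far the most abundant member. This gene encodes a glutathione transferase that removes the lipid peroxidation product 4-hydroxynonenal, and the median of its 12 group means was 1364 CPM per kb. By the same measure Hmox1 (heme oxygenase 1, which breaks down heme) followed at 66.0, Gclc (the catalytic subunit of glutamate-cysteine ligase, which makes the first intermediate of glutathione) at 61.1, Nqo1 (a quinone reductase) at 43.3, Srxn1 (sulfiredoxin, which reactivates oxidised peroxiredoxins) at 30.9 and Nfe2l2 at 27.4 CPM per kb. Keap1 stood at 11.7, Txnrd1 (cytosolic thioredoxin reductase) at 7.74, Gclm (the modifier subunit of glutamate-cysteine ligase) at 2.71 and Slc7a11 (xCT, the cystine importer) at 0.701 CPM per kb. The place of Gclm is uncertain, because its exons overlap a pseudogene on the same strand, as described below. Neighbouring medians such as those of Hmox1 and Gclc, or Srxn1 and Nfe2l2, lay closer together than each gene's range over the groups. The lowest count of any member in any library was 46, for Slc7a11.

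The members differed widely in how much they moved over the 12 groups. Mean CPM spanned 14.5-fold for Gclc, from 54.0 in PKP4-KO at 72 h in HCM to 784 in WT at 72 h in LCM. The span was 10.7-fold for Txnrd1, 9.63-fold for Hmox1, 8.63-fold for Slc7a11 and 6.38-fold for Srxn1. It was 4.65-fold for Gsta4, 4.40-fold for Gclm and 3.25-fold for Nqo1. The regulators moved least, Keap1 over 2.68-fold and Nfe2l2 over 2.03-fold. Read against all tested genes on the log2 scale, 93.5% of genes had a smaller range than Gclc and 17.1% a smaller one than Nfe2l2. PKP4-KO at 72 h in HCM was the lowest group for 4 members (Gclc, Txnrd1, Gclm and Nfe2l2) and the highest for Gsta4, and PKP4-KO at 24 h in HCM was the lowest for Gsta4, Hmox1 and Nqo1.

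**Figure D1:**
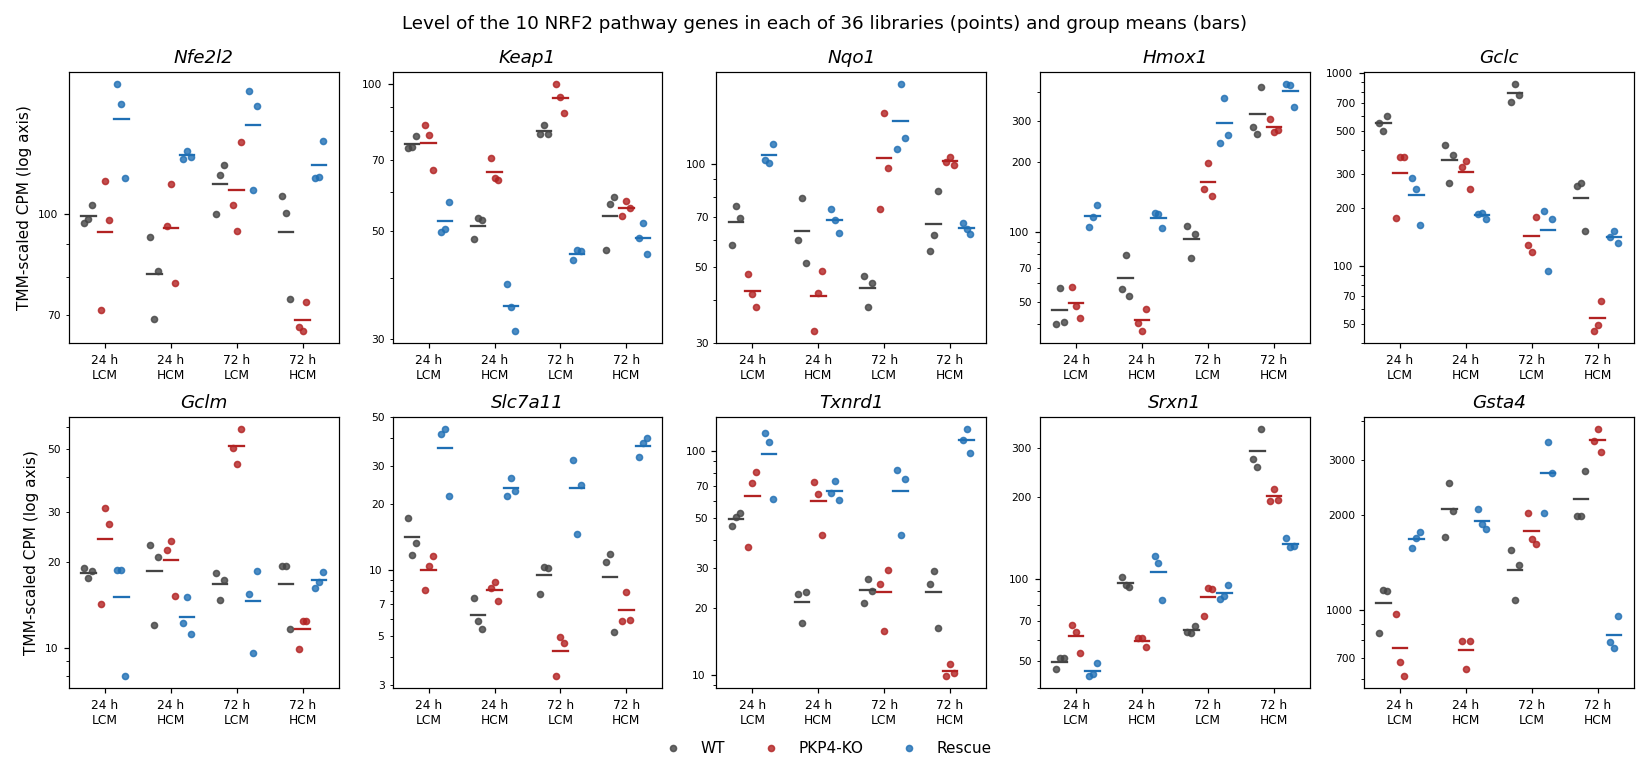
Level of each member (CPM after TMM scaling, log axis) in the 36 libraries, 1 panel per gene, with the 4 culture conditions along the horizontal axis and the 3 genotypes in colour; each point is 1 library and each bar the mean of its group of 3. Within each culture condition Slc7a11 and Hmox1 have their highest mean in Rescue, and Gclc and Txnrd1 have the lowest mean of all groups in PKP4-KO at 72 h in HCM.

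The members lie on 5 chromosomes (GRCm39): Nfe2l2 (chr2:75504739-75534985) and Srxn1 (chr2:151947436-151957687), Gclm (chr3:122039126-122065061) and Slc7a11 (chr3:49846975-50398070), Nqo1 (chr8:108113835-108129934) and Hmox1 (chr8:75820241-75827217), Keap1 (chr9:21141026-21150679), Gclc (chr9:77661797-77701770) and Gsta4 (chr9:78090056-78117763), and Txnrd1 (chr10:82669785-82733546). The Gclm counts are uncertain, because its exons overlap the processed pseudogene Gm6061 on the same strand, which drew 46940 counts over all libraries against 13204 for Gclm, and the antisense gene Gm17494 with 1761. Antisense genes that overlap Nfe2l2 and Keap1 had 256 and 682 counts in all, and the strand setting of the counting is not given in the sources used here.

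The antioxidant genes did not differ in a single direction between PKP4-KO and WT cells. A gene was called where edgeR's quasi-likelihood test gave a Benjamini-Hochberg adjusted p below 0.05 over all genes tested. Between PKP4-KO and WT, 6 of 10 members were called at 24 h in HCM (2 higher, 4 lower, against 42.8% of all genes, 20.7% higher and 22.2% lower). In LCM at that time 2 were called (0 higher, 2 lower, against 40.2% of all genes, 19.7% higher and 20.6% lower). After 72 h there were 6 in HCM (2 higher, 4 lower, against 51.8% of all genes, 21.9% higher and 29.9% lower) and 6 in LCM (4 higher, 2 lower, against 45.1% of all genes, 21.3% higher and 23.8% lower). The members' share lay above that of all genes in 3 conditions and below it at 24 h in LCM. With 10 members a single gene is a large share, and 6 of 10 lay close to 51.8% at 72 h in HCM. The counts also moved with the fit, to 7, 5, 4 and 7 with the length offset in the order given. The median log2 fold change of the 10 members was -0.038, -0.039, -0.48 and 0.31 in the order given, beside -0.0016, 0.0033, -0.072 and 0.025 for all genes. No member was called in the same direction in all 4 conditions, while 8.48% of all genes were called higher and 10.2% lower in all 4. Without TMM factors the median of all genes shifted by -0.23 (24 h LCM), -0.76 (72 h HCM) and -0.37 (72 h LCM), and the share of higher genes among all called went from 48.9 to 34.1%, from 42.2 to 13.5% and from 47.3 to 25.7%. The changes below are relative to the TMM-scaled median. Libraries of 2 genotypes did not overlap for 35.1 to 75.5% of all genes over the 12 comparisons between genotypes, so a lack of overlap was common.

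Each of the regulators was called in 1 of 4 conditions between PKP4-KO and WT. Nfe2l2 read 67.2, 66.1 and 73.2 CPM in PKP4-KO and 107, 100.4 and 74.0 in WT at 72 h in HCM, the 3 PKP4-KO libraries below all WT ones. The log2 fold change was -0.45 ± 0.17 (SE, edgeR adjusted p = 0.0316). That call was lost with DESeq2, at -0.33 (adjusted p = 0.0850), and with the length offset, at -0.35 (adjusted p = 0.0539). It was also lost without PKP4-KO replicate 1 or 2 or WT replicate 1 or 2 (log2 fold changes -0.44 to -0.35, adjusted p = 0.0760 to 0.144). The 60 tested genes within 5 Mb of Nfe2l2 had a median of -0.81 there, lower than Nfe2l2 itself. In the other 3 conditions the Nfe2l2 libraries of both genotypes overlapped. On the log2 scale the differences were 0.23, -0.082 and -0.031 (24 h HCM, 24 h LCM and 72 h LCM). With the median of the tested genes within 5 Mb subtracted, Nfe2l2 stood at 0.37 at 24 h in LCM and 0.54 at 72 h in LCM. Its neighbourhood was thus lower in PKP4-KO in these conditions as well. Keap1 read 70.6, 64.3 and 63.6 CPM in PKP4-KO against 48.1, 53.2 and 52.7 in WT at 24 h in HCM, again without overlap, and was higher by 0.37 ± 0.10 (SE, edgeR adjusted p = 0.00522) on the log2 scale. Fitted on the 2 groups alone this was 0.34 (adjusted p = 0.0816), and with no filter on low counts 0.38 (adjusted p = 0.0607). Keap1 was not called in the other 3 conditions, at 0.0052, 0.053 and 0.23 (24 h LCM, 72 h HCM and 72 h LCM). With the length offset it was called higher in 2 of the 4 conditions. Other fits of Nfe2l2 at 72 h in HCM also missed the threshold, at -0.47 (adjusted p = 0.0618) with no filter on low counts and -0.43 (adjusted p = 0.0655) in a fit of only the groups compared.

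Nqo1, the target most often used to read NRF2 activity, was lower in PKP4-KO at 24 h and higher at 72 h. At 24 h it read 32.5, 41.9 and 48.6 CPM in PKP4-KO and 59.8, 79.4 and 51.3 in WT in HCM, and 47.6, 41.6 and 38.2 against 58.03, 75.3 and 69.5 in LCM. In both media every PKP4-KO library lay below every WT library. The corresponding log2 fold changes were -0.63 ± 0.20 (SE, edgeR adjusted p = 0.0110) and -0.67 ± 0.20 (SE, edgeR adjusted p = 0.00819). At 72 h it read 101, 104 and 99.3 CPM against 55.5, 61.9 and 83.0 in HCM and 73.5, 141 and 96.9 against 47.0, 38.2 and 44.9 in LCM. Here every PKP4-KO library lay above every WT library. Log2 fold changes were 0.61 ± 0.20 (SE, edgeR adjusted p = 0.0125) and 1.26 ± 0.20 (SE, edgeR adjusted p = 9.69e-06). The difference between the 72 h and the 24 h effect was 1.24 ± 0.28 (SE, edgeR adjusted p = 0.00147) in HCM and 1.93 ± 0.28 (SE, edgeR adjusted p = 3.89e-05) in LCM, where 26.6% and 5.25% of all genes had such a difference. The higher level at 72 h in HCM did not hold up to the processing: it was 0.15 (adjusted p = 0.373) with the length offset and -0.13 without TMM factors. Its call was lost without WT replicate 1 or 2 (log2 fold changes 0.48 to 0.55, adjusted p = 0.0542 to 0.0807). In HCM at 24 h the call was lost without PKP4-KO replicate 1 or WT replicate 2 (log2 fold changes -0.49 to -0.44, adjusted p = 0.0793 to 0.0953). The value in LCM at 72 h was 0.87 (adjusted p = 8.39e-06) with the length offset. The value at 24 h in HCM was -0.66 (adjusted p = 0.0787) in a fit of only the groups compared. The difference between the times in HCM was not called, at 0.43 (adjusted p = 0.0712) without TMM factors.

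Hmox1 followed Nqo1 at 24 h in HCM and at 72 h in LCM only. It read 40.7, 37.4 and 46.7 CPM in PKP4-KO and 56.8, 79.8 and 53.2 in WT at 24 h in HCM, all PKP4-KO libraries lower. The log2 fold change was -0.60 ± 0.20 (SE, edgeR adjusted p = 0.0146). The call was lost without PKP4-KO replicate 2 or WT replicate 2 (log2 fold changes -0.54 to -0.41, adjusted p = 0.0624 to 0.122). After 72 h in LCM it read 152, 196 and 142 CPM against 105, 77.0 and 97.9, all PKP4-KO libraries higher. The log2 fold change was 0.81 ± 0.20 (SE, edgeR adjusted p = 0.00153). In the remaining conditions the libraries overlapped. The log2 fold changes were 0.10 (24 h LCM) and -0.19 (72 h HCM), and the latter passed the test with the length offset, at -0.55 (adjusted p = 0.000565), and without TMM factors, at -0.91. The call at 24 h in HCM also missed the threshold, at -0.64 (adjusted p = 0.0607) in a fit of only the groups compared. With the length offset the value at 72 h in LCM was 0.49 (adjusted p = 0.00194).

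The glutathione genes split. Gclc was lower in PKP4-KO in 3 of 4 conditions, with the largest differences of all members. At 72 h it read 46.2, 49.4 and 66.4 CPM in PKP4-KO and 259, 269 and 152 in WT in HCM, and 129, 118 and 180.4 against 711, 873 and 767 in LCM. The groups lay far apart in both media. On the log2 scale the differences were -2.07 ± 0.28 (SE, edgeR adjusted p = 6.97e-07) and -2.46 ± 0.28 (SE, edgeR adjusted p = 4.82e-08), about the same with the length offset at -1.97 and -2.43. At 24 h in LCM it read 177, 367 and 369 CPM against 553, 501 and 595. The log2 fold change was -0.85 ± 0.27 (SE, edgeR adjusted p = 0.0130). PKP4-KO replicate 1, one of the libraries that stood apart, was far below its companions and the value without it was -0.58 (adjusted p = 0.111). In HCM at 24 h the Gclc libraries overlapped, at -0.20 ± 0.27 (SE, edgeR adjusted p = 0.587). The fall from the 24 h to the 72 h effect was itself called, at -1.86 ± 0.38 (SE, edgeR adjusted p = 0.000539) in HCM and -1.60 ± 0.38 (SE, edgeR adjusted p = 0.00970) in LCM.

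Gclm, the partner subunit of Gclc, did not follow it in these counts, which are uncertain for Gclm because of the overlap with Gm6061 described above. After 72 h in LCM it read 50.4, 44.2 and 58.8 CPM in PKP4-KO and 18.3, 14.7 and 17.4 in WT, a log2 fold change of 1.61 ± 0.29 (SE, edgeR adjusted p = 6.07e-05) in the direction opposite to Gclc. In the other 3 conditions it was not called, at 0.13, 0.40 and -0.54 (24 h HCM, 24 h LCM and 72 h HCM). Left without the 7 libraries that stood apart, 2 of these passed the test, at 0.64 (adjusted p = 0.000454) in LCM at 24 h and -0.72 (adjusted p = 0.000159) in HCM at 72 h. The Gclm effect differed between the media at 72 h, at -2.15 ± 0.42 (SE, edgeR adjusted p = 0.00146), where 5.74% of all genes did.

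Slc7a11, which brings in the cystine that limits glutathione synthesis, was lower in PKP4-KO at 72 h in LCM. It read 3.29, 4.95 and 4.65 CPM against 7.82, 10.4 and 10.2 in WT, without overlap. The log2 fold change was -1.14 ± 0.28 (SE, edgeR adjusted p = 0.00178), or -0.47 (adjusted p = 0.0304) with the length offset. It was not called in the other conditions, at 0.38, -0.48 and -0.52 (24 h HCM, 24 h LCM and 72 h HCM). With the length offset it was called higher in 1 of these. At 72 h in HCM its sign depended on the processing, 0.35 (adjusted p = 0.112) with the length offset and -0.78 (adjusted p = 0.00209) without the 7 libraries.

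Gsta4 moved the most at 24 h in HCM. It read 796, 648 and 794 CPM in PKP4-KO and 1704, 2527 and 2060.5 in WT, the highest PKP4-KO library below the lowest WT one. The log2 fold change was -1.49 ± 0.20 (SE, edgeR adjusted p = 5.47e-07). In HCM at 72 h the order was turned, with 3452, 3758 and 3183 CPM against 1992, 1986 and 2771 and a log2 fold change of 0.62 ± 0.20 (SE, edgeR adjusted p = 0.0101). The change between the 2 times was 2.11 ± 0.28 (SE, edgeR adjusted p = 1.56e-06). The 72 h value was 0.019 (adjusted p = 0.928) with the length offset, -0.12 without TMM factors. Its call was lost without WT replicate 1 or 2 (log2 fold changes 0.53 to 0.54, adjusted p = 0.0558 to 0.0574). In LCM the log2 fold changes were -0.47 ± 0.20 (SE, edgeR adjusted p = 0.0564) at 24 h and 0.41 ± 0.20 (SE, edgeR adjusted p = 0.0889) at 72 h.

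Of the thioredoxin system genes, Txnrd1 was higher in PKP4-KO at 24 h and lower at 72 h, both in HCM. It read 72.4, 64.4 and 42.4 CPM in PKP4-KO and 23.0, 17.1 and 23.5 in WT at 24 h, then 9.90, 11.2 and 10.2 against 25.5, 29.0 and 16.2 at 72 h. The groups did not overlap at either time. The corresponding log2 fold changes were 1.49 ± 0.29 (SE, edgeR adjusted p = 9.44e-05) and -1.18 ± 0.30 (SE, edgeR adjusted p = 0.00167), the latter -0.69 (adjusted p = 0.00819) with the length offset. The change between the times was -2.67 ± 0.41 (SE, edgeR adjusted p = 1.47e-05). In LCM the libraries overlapped at both times. Log2 fold changes were 0.35 and -0.018.

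Srxn1 was lower in PKP4-KO in HCM at both times and higher in LCM at 72 h. In HCM it read 60.9, 60.9 and 56.3 CPM against 102, 94.7 and 93.1 at 24 h and 193, 213 and 195 against 274, 256 and 353 at 72 h, with all PKP4-KO libraries lower. The log2 fold changes were -0.70 ± 0.13 (SE, edgeR adjusted p = 5.10e-05) and -0.56 ± 0.13 (SE, edgeR adjusted p = 0.000683). In LCM it read 68.1, 64.2 and 53.6 CPM against 46.8, 51.3 and 51.3 at 24 h and 72.9, 92.5 and 91.6 against 63.9, 63.6 and 67.5 at 72 h. All PKP4-KO libraries were higher there. On the log2 scale the differences were 0.32 ± 0.13 (SE, edgeR adjusted p = 0.0505), short of the threshold, and 0.40 ± 0.13 (SE, edgeR adjusted p = 0.0126). The call at 72 h in LCM was lost without PKP4-KO replicate 2 or 3 (log2 fold changes both 0.34, adjusted p = 0.0566 to 0.0620). The effect in HCM differed from that in LCM at both times, at -1.02 ± 0.18 (SE, edgeR adjusted p = 0.000785) at 24 h, where 4.02% of all genes differed and at -0.95 ± 0.18 (SE, edgeR adjusted p = 0.00104) at 72 h. The 116 tested genes within 5 Mb of Srxn1 had median log2 fold changes of 0.56, 0.62, 0.60 and 0.56 in PKP4-KO against WT. These are for 24 h HCM, 24 h LCM, 72 h HCM and 72 h LCM. The values of Srxn1 in LCM were no higher than those of its neighbourhood. In HCM its values of -0.70 and -0.56 lay further below the neighbourhood than below 0. Srxn1 at 72 h in LCM was 0.0092 (adjusted p = 0.969) without TMM factors and 0.38 (adjusted p = 0.0841) with no filter on low counts. The difference between the media at 24 h was -0.71 (adjusted p = 0.0535) without TMM factors.

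The size of the PKP4-KO effect differed between media and times for several members. Of 10, 2 had an effect in HCM that differed from that in LCM at 24 h (0 higher, 2 lower, against 4.02% of all genes, 1.23% higher and 2.79% lower) and 3 at 72 h (0 higher, 3 lower, against 5.74% of all genes, 1.85% higher and 3.88% lower). Between the times, 5 differed in HCM (2 higher, 3 lower, against 26.6% of all genes, 10.8% higher and 15.8% lower) and 2 in LCM (1 higher, 1 lower, against 5.25% of all genes, 3.43% higher and 1.82% lower). Beside those already described, Gsta4 differed between media at 24 h, with -1.02 ± 0.28 (SE, edgeR adjusted p = 0.0331), Hmox1 at 72 h, with -0.999 ± 0.28 (SE, edgeR adjusted p = 0.0279), and Nfe2l2 between times in HCM, with -0.68 ± 0.24 (SE, edgeR adjusted p = 0.0381). Each of these 3 was lost in several fits that left out 1 library, with adjusted p of up to 0.139, 0.0973 and 0.128. Without TMM factors the share of higher values among all called moved from 30.6 to 56.8% (media, 24 h), from 32.3 to 6.75% (media, 72 h) and from 40.5 to 9.76% (times, HCM). The medians of all genes moved by 0.29, -0.37, -0.82 and, for times in LCM, -0.15. The Gsta4 difference was also lost, at -1.01 (adjusted p = 0.0735) with no filter on low counts, -0.69 (adjusted p = 0.131) without the 7 libraries and -1.001 (adjusted p = 0.164) in a fit of only the groups compared. That of Hmox1 missed the threshold at -0.99 (adjusted p = 0.0506) with no filter on low counts and -0.92 (adjusted p = 0.104) in a fit of only the groups compared. Without the 7 libraries it was -0.58 (adjusted p = 0.0372). Nfe2l2 was not called, at -0.54 (adjusted p = 0.0610) with DESeq2, -0.72 (adjusted p = 0.0731) with no filter on low counts and -0.73 (adjusted p = 0.0533) in a fit of only the groups compared.

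**Figure D2:**
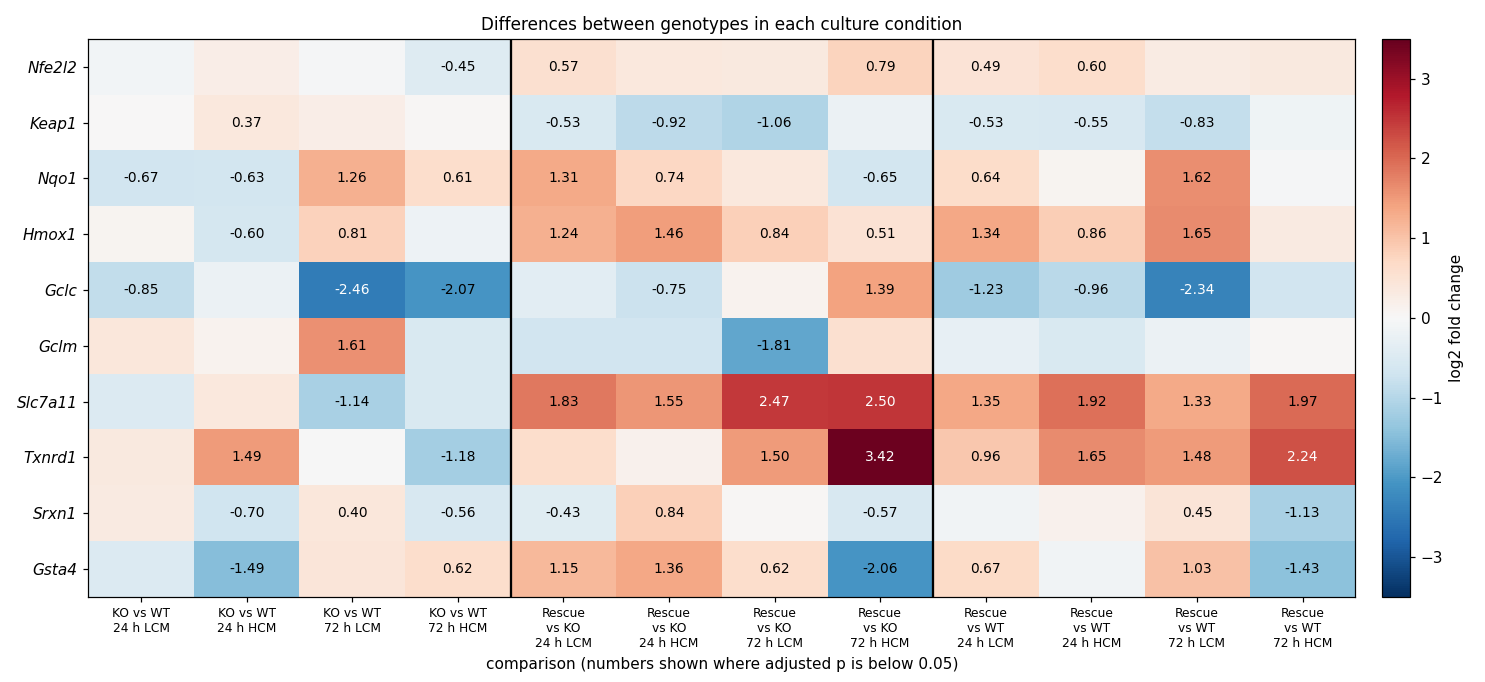
Log2 fold change of each member between genotypes (PKP4-KO against WT, Rescue against PKP4-KO and Rescue against WT) in the 4 culture conditions, from edgeR's fit of all 36 libraries. Each row is a gene, each column a comparison, colour gives the log2 fold change (red higher, blue lower) and numbers are printed where the adjusted p was below 0.05. Slc7a11 is red with a number in all 8 Rescue comparisons, while Nqo1 is blue at 24 h and red at 72 h in PKP4-KO against WT.

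The length trend was strongest where PKP4-KO cells had been kept in HCM for 72 h. In PKP4-KO against WT there, the median log2 fold change was 0.49 for the 5853 tested genes under 3000 bp and -0.35 for the 9261 longer ones, beside 0.21 for the 4 short members and -0.53 for the 6 long ones. In Rescue against PKP4-KO it was -0.76 and 0.65 for all genes and -0.61 and 1.09 for the members. With the length offset 4 members differed between PKP4-KO and WT at 72 h in HCM, all 4 of them lower (Hmox1, Gclc, Txnrd1 and Srxn1), and 7, 5 and 7 at 24 h in HCM, 24 h in LCM and 72 h in LCM. Without the 7 libraries the counts were 6, 5, 8 and 7 in the order first given. After 24 h in LCM the members added by this step were Gclm at 0.64 (adjusted p = 0.000454), Txnrd1 at 0.59 (adjusted p = 0.000400) and Gsta4 at -0.72 (adjusted p = 0.00132).

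**Figure D3:**
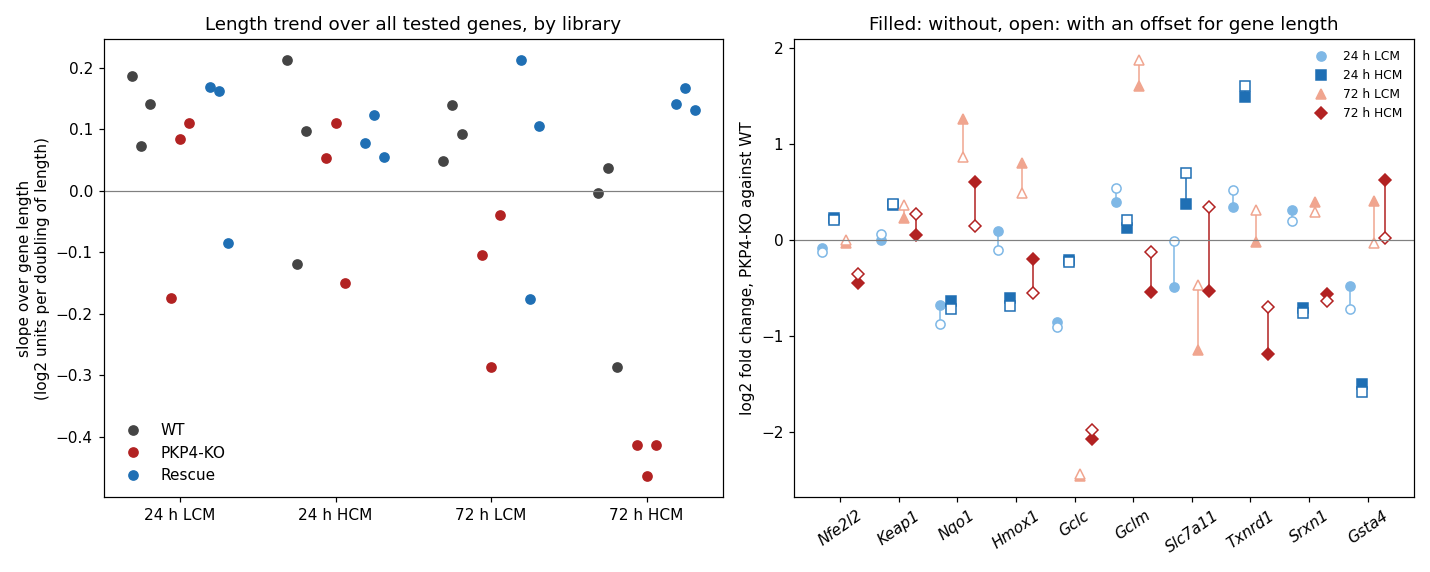
Slope of the log2 deviation of all tested genes on log2 gene length in each library (left), and log2 fold change in PKP4-KO against WT of each member in the 4 culture conditions (right), where filled symbols are values without and open symbols values with the length offset. The 3 libraries of PKP4-KO at 72 h in HCM have the lowest slopes, and in that condition the offset brings the short genes Nqo1 and Gsta4 nearer to 0 while Gclc stays low.

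The Rescue cells set several members apart from both other genotypes. Against PKP4-KO, 7 members were called at 24 h in HCM (5 higher, 2 lower, against 40.8% of all genes, 21.7% higher and 19% lower). The count was 7 at 24 h in LCM (5 higher, 2 lower, against 33.7% of all genes, 18.2% higher and 15.5% lower), 8 at 72 h in HCM (5 higher, 3 lower, against 66.7% of all genes, 37.2% higher and 29.5% lower) and 6 at 72 h in LCM (4 higher, 2 lower, against 41.5% of all genes, 23.3% higher and 18.3% lower). Against WT, 6 were called at 24 h in HCM (4 higher, 2 lower, against 23.2% of all genes, 11.8% higher and 11.4% lower) and 8 at 24 h in LCM (6 higher, 2 lower, against 24.8% of all genes, 13.5% higher and 11.4% lower). The numbers at 72 h were 4 in HCM (2 higher, 2 lower, against 36.2% of all genes, 19.5% higher and 16.7% lower) and 8 in LCM (6 higher, 2 lower, against 32.4% of all genes, 17.9% higher and 14.6% lower). Both sets of comparisons use the same Rescue libraries, so they are not independent. Against WT the members' share lay above that of all genes in all 4 conditions, though at 72 h in HCM it was 4 of 10 beside 36.2%. Without TMM factors the share of higher genes among all called moved from 55.8 to 84.7% and from 56.0 to 76.9% against PKP4-KO at 72 h (HCM and LCM), and against WT from 51.0 to 66.2% (24 h HCM), from 54.2 to 43.9% (24 h LCM) and from 53.9 to 80.1% (72 h HCM). The median of all genes moved by 1.17, 0.35, 0.12, -0.14 and 0.40 in these 5 comparisons.

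Slc7a11 was the most constant of these. At 24 h it read 21.8, 26.5 and 23.0 CPM in Rescue cells in HCM, against 8.29, 8.82 and 7.24 in PKP4-KO and 7.47, 5.89 and 5.40 in WT, and 42.0, 44.1 and 21.8 in LCM, against 8.10, 10.5 and 11.6 and 17.3, 11.7 and 13.3. At 72 h it read 33.0, 38.1 and 40.1 CPM in HCM, against 5.84, 7.99 and 5.90 and 10.9, 11.9 and 5.23, and 32.0, 14.6 and 24.5 in LCM, against 3.29, 4.95 and 4.65 and 7.82, 10.4 and 10.2. No Rescue library overlapped with either other genotype. Against PKP4-KO the log2 fold changes were 1.55 ± 0.28 (SE, edgeR adjusted p = 3.98e-05), 1.83 ± 0.28 (SE, edgeR adjusted p = 5.11e-06), 2.50 ± 0.29 (SE, edgeR adjusted p = 4.24e-08) and 2.47 ± 0.29 (SE, edgeR adjusted p = 6.97e-08) at 24 h in HCM, 24 h in LCM, 72 h in HCM and 72 h in LCM. Against WT they were 1.92 ± 0.28 (SE, edgeR adjusted p = 6.92e-06), 1.35 ± 0.27 (SE, edgeR adjusted p = 0.000392), 1.97 ± 0.28 (SE, edgeR adjusted p = 3.37e-06) and 1.33 ± 0.27 (SE, edgeR adjusted p = 0.000334). All 8 passed the test in every alternative fit run, and with the length offset they ranged from 1.22 to 1.92. The lowest Rescue library in each LCM group was the one that stood apart in its length trend.

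Hmox1 was higher in Rescue than in PKP4-KO in all 4 conditions, and it and Slc7a11 were the only members so called (9.08% of all genes were). It read 120.4, 119 and 104 CPM in Rescue cells in HCM at 24 h and 105, 115 and 129.9 in LCM, where the 6 PKP4-KO libraries lay between 37.4 and 57.7. The corresponding log2 fold changes were 1.46 ± 0.20 (SE, edgeR adjusted p = 8.28e-07) and 1.24 ± 0.20 (SE, edgeR adjusted p = 1.38e-05), and 0.51 (adjusted p = 0.0240) and 0.84 (adjusted p = 0.00109) at 72 h in HCM and LCM. The smallest of them, at 72 h in HCM, was lost with DESeq2 at 0.38 (adjusted p = 0.117) and without PKP4-KO replicate 2 or 3 or Rescue replicate 1 or 2 (log2 fold changes 0.47 to 0.50, adjusted p = 0.0585 to 0.0675), and was 1.18 (adjusted p = 5.12e-09) with the length offset. Against WT, Hmox1 was higher in 3 conditions, at 0.86 (adjusted p = 0.00186), 1.34 (adjusted p = 9.00e-06) and 1.65 (adjusted p = 1.96e-07) by edgeR's quasi-likelihood test, and overlapped with WT at 72 h in HCM. The value against PKP4-KO at 72 h in LCM was 0.80 (adjusted p = 0.0529) in a fit of only the groups compared.

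Txnrd1 was higher in Rescue than in WT in all 4 conditions, and it and Slc7a11 were the only members so called (5.13% of all genes were). The largest difference was at 72 h in HCM, where it read 112, 125 and 97.8 CPM in Rescue, 25.5, 29.0 and 16.2 in WT and 9.90, 11.2 and 10.2 in PKP4-KO. The 3 genotypes did not overlap. Log2 fold changes were 2.24 ± 0.29 (SE, edgeR adjusted p = 1.05e-06) against WT and 3.42 ± 0.31 (SE, edgeR adjusted p = 5.17e-10) against PKP4-KO, or 1.97 and 2.67 with the length offset. Against WT the others were 1.65 (adjusted p = 8.44e-05), 0.96 (adjusted p = 0.0124) and 1.48 (adjusted p = 0.000162) (24 h HCM, 24 h LCM and 72 h LCM, edgeR). The one at 24 h in LCM was lost without Rescue replicate 1 or 2 or WT replicate 1 (log2 fold changes 0.77 to 0.90, adjusted p = 0.0528 to 0.0769). Against PKP4-KO, Txnrd1 overlapped at 24 h in both media and was higher at 72 h in LCM, by 1.497 ± 0.29 (SE, edgeR adjusted p = 0.000111). Against WT at 24 h in LCM, Txnrd1 was also not called without TMM factors, at 0.85 (adjusted p = 0.116).

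Keap1 moved the other way. It read 39.0, 34.99 and 31.2 CPM in Rescue cells at 24 h in HCM, 49.8, 50.5 and 57.2 at 24 h in LCM and 43.6, 45.8 and 45.5 at 72 h in LCM. Every one of these libraries lay below all PKP4-KO and WT libraries of the same condition. The log2 fold changes against PKP4-KO were -0.92 ± 0.11 (SE, edgeR adjusted p = 3.35e-08), -0.53 ± 0.10 (SE, edgeR adjusted p = 0.000184) and -1.06 ± 0.11 (SE, edgeR adjusted p = 3.14e-09), and against WT -0.55 (adjusted p = 0.000233), -0.53 (adjusted p = 0.000337) and -0.83 (adjusted p = 3.06e-07). At 72 h in HCM, where the libraries of all 3 genotypes lay between 44.8 and 58.8 CPM, it was not called against either (adjusted p = 0.0887 and 0.263 by edgeR), though against PKP4-KO it was with the length offset, at -0.59 (adjusted p = 0.000347). Nfe2l2 was higher in Rescue than in PKP4-KO at 24 h in LCM, by 0.57 ± 0.17 (SE, edgeR adjusted p = 0.00971), and at 72 h in HCM, by 0.79 ± 0.17 (SE, edgeR adjusted p = 0.000261). The first of these calls was lost without PKP4-KO replicate 1 or Rescue replicate 1 (log2 fold changes 0.41 to 0.48, adjusted p = 0.0657 to 0.0935). Nfe2l2 was higher than in WT at 24 h in both media, by 0.60 (adjusted p = 0.0102) in HCM and 0.49 (adjusted p = 0.0346) in LCM (edgeR). The call in HCM was lost without WT replicate 2 (log2 fold change 0.50, adjusted p = 0.0691), and that in LCM without Rescue replicate 1 or 2 or WT replicate 1, 2 or 3 (log2 fold changes 0.39 to 0.52, adjusted p = 0.0659 to 0.154). For Nfe2l2 at 24 h in LCM the value against PKP4-KO was 0.66 (adjusted p = 0.0713) without TMM factors and 0.59 (adjusted p = 0.0524) in a fit of only the groups compared. Against WT in the same condition it was 0.37 (adjusted p = 0.384) without TMM factors and 0.50 (adjusted p = 0.0858) with no filter on low counts. The value in HCM was 0.71 (adjusted p = 0.0691) without TMM factors.

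The 2 subunits of glutamate-cysteine ligase were not higher than in WT in any Rescue group. Gclc at 72 h in LCM read 194, 94.2 and 175 CPM in Rescue, 129, 118 and 180.4 in PKP4-KO and 711, 873 and 767 in WT, so that Rescue overlapped with PKP4-KO and was lower than WT, at -2.34 ± 0.28 (SE, edgeR adjusted p = 1.50e-07). It was also lower than in WT at 24 h, at -0.96 (adjusted p = 0.0101) in HCM and -1.23 (adjusted p = 0.00109) in LCM. The former was lost without WT replicate 1 (log2 fold change -0.81, adjusted p = 0.0562). Against PKP4-KO, Gclc was higher in Rescue at 72 h in HCM, with 141, 153 and 132 CPM and a log2 fold change of 1.39 ± 0.28 (SE, edgeR adjusted p = 8.34e-05), and lower at 24 h in HCM, at -0.75 ± 0.27 (SE, edgeR adjusted p = 0.0265). This call was lost without PKP4-KO replicate 1 or 2 or Rescue replicate 1, 2 or 3 (log2 fold changes -0.77 to -0.64, adjusted p = 0.0596 to 0.0973). Gclm in Rescue at 72 h in LCM read 15.5, 9.64 and 18.6 CPM, below all 3 PKP4-KO libraries, at -1.81 ± 0.30 (SE, edgeR adjusted p = 1.38e-05) and overlapping with WT. In HCM at 24 h, Gclc against PKP4-KO was -0.70 (adjusted p = 0.146) without TMM factors. Against WT in that condition it was -0.86 (adjusted p = 0.112) without TMM factors.

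Nqo1, Gsta4 and Srxn1, all lower in PKP4-KO than in WT at 24 h in HCM, were higher in Rescue than in PKP4-KO there. After 24 h in LCM, Nqo1 read 102, 100.3 and 114 CPM in Rescue, above all PKP4-KO libraries by 1.31 ± 0.20 (SE, edgeR adjusted p = 6.57e-06) and above all WT libraries by 0.64 ± 0.20 (SE, edgeR adjusted p = 0.0171). The latter was lost without Rescue replicate 3 or WT replicate 1 (log2 fold changes 0.54 to 0.58, adjusted p = 0.0615 to 0.0920). At 24 h in HCM it was higher than in PKP4-KO by 0.74 ± 0.20 (SE, edgeR adjusted p = 0.00370) and overlapped with WT. In LCM at 72 h it read 110.4, 170.5 and 119 CPM, overlapping with PKP4-KO and above WT by 1.62 ± 0.20 (SE, edgeR adjusted p = 2.84e-07). After 72 h in HCM it was lower than in PKP4-KO, at -0.65 ± 0.20 (SE, edgeR adjusted p = 0.00546), but the sign turned with the length offset, at 0.17 (adjusted p = 0.293), and without TMM factors, at 0.53.

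Gsta4 at 24 h was higher in Rescue than in PKP4-KO, with 2092, 1869 and 1802 CPM in HCM and 1576, 1694 and 1762 in LCM and log2 fold changes of 1.36 ± 0.20 (SE, edgeR adjusted p = 2.38e-06) and 1.15 ± 0.20 (SE, edgeR adjusted p = 4.08e-05). At 72 h in HCM it read 789.7, 753 and 955 CPM in Rescue, below every library of PKP4-KO and WT at that time. The log2 fold changes were -2.06 ± 0.21 (SE, edgeR adjusted p = 2.31e-09) and -1.43 ± 0.20 (SE, edgeR adjusted p = 3.11e-06), or -0.97 and -0.95 with the length offset. Against WT it was higher in LCM at 24 h, by 0.67 (adjusted p = 0.0126), and at 72 h, by 1.03 (adjusted p = 0.000171) (edgeR). The former was lost without WT replicate 1 (log2 fold change 0.54, adjusted p = 0.0878). In LCM at 72 h its excess over PKP4-KO, 0.62 ± 0.20 (SE, edgeR adjusted p = 0.0136), came with overlapping libraries and was lost without PKP4-KO replicate 3 or Rescue replicate 2 (log2 fold changes 0.42 to 0.56, adjusted p = 0.0534 to 0.0981). That value was 0.38 (adjusted p = 0.0930) without the 7 libraries and 0.58 (adjusted p = 0.161) in a fit of only the groups compared. It was 0.97 (adjusted p = 2.95e-06) with the length offset.

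Srxn1 at 24 h in HCM read 122, 114 and 83.5 CPM in Rescue, above all PKP4-KO libraries by 0.84 ± 0.13 (SE, edgeR adjusted p = 4.30e-06) and overlapping with WT. After 24 h in LCM it was lower than in PKP4-KO, at -0.43 ± 0.13 (SE, edgeR adjusted p = 0.0104). This call was lost without PKP4-KO replicate 1 (log2 fold change -0.35, adjusted p = 0.0621). At 72 h in HCM it read 141, 131 and 132 CPM, below WT, at -1.13 ± 0.13 (SE, edgeR adjusted p = 1.19e-07) and below PKP4-KO, at -0.57 ± 0.13 (SE, edgeR adjusted p = 0.000331), the latter turning to 0.61 without TMM factors. In LCM at 72 h it was above WT by 0.45 ± 0.13 (SE, edgeR adjusted p = 0.00752). The value at 24 h in LCM against PKP4-KO also missed the threshold, at -0.32 (adjusted p = 0.0917) without TMM factors, -0.43 (adjusted p = 0.0585) with no filter on low counts and -0.41 (adjusted p = 0.0823) in a fit of only the groups compared.

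Members differed between media in WT at both times and, at 72 h, in PKP4-KO cells. In HCM against LCM, 5 members were called in WT at 24 h (2 higher, 3 lower, against 14.2% of all genes, 7.69% higher and 6.48% lower) and 6 at 72 h (4 higher, 2 lower, against 21.4% of all genes, 10.6% higher and 10.8% lower). In PKP4-KO 0 were called at 24 h (0 higher, 0 lower, against 2.83% of all genes, 1.44% higher and 1.4% lower) and 8 at 72 h (3 higher, 5 lower, against 32.6% of all genes, 12.9% higher and 19.7% lower). Rescue had 3 at 24 h (1 higher, 2 lower, against 12% of all genes, 6% higher and 5.96% lower) and 4 at 72 h (2 higher, 2 lower, against 24.9% of all genes, 13% higher and 12% lower). For the 0 in PKP4-KO at 24 h, no member reached an unadjusted p of 0.05 in edgeR's quasi-likelihood test, DESeq2 called 0, and the smallest edgeR adjusted p was 0.395. The share of higher genes among all called moved without TMM factors from 54.3 to 24.8% in WT at 24 h, from 49.6 to 25.6% in WT and 39.5 to 8.17% in PKP4-KO at 72 h, and from 52.0 to 63.2% in Rescue at 72 h. Medians of all genes shifted by -0.29, -0.29, -0.69 and 0.13.

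Srxn1 was higher in HCM in 5 of 6 comparisons, more than any other member. In WT it read 102, 94.7 and 93.1 CPM in HCM and 46.8, 51.3 and 51.3 in LCM at 24 h, and 274, 256 and 353 against 63.9, 63.6 and 67.5 at 72 h. It was higher in HCM without overlap, by 0.95 ± 0.13 (SE, edgeR adjusted p = 3.39e-06) and 2.18 ± 0.13 (SE, edgeR adjusted p = 2.55e-12). In Rescue cells it was higher in HCM by 1.21 ± 0.13 (SE, edgeR adjusted p = 1.75e-07) and 0.60 ± 0.13 (SE, edgeR adjusted p = 0.000805), and in PKP4-KO at 72 h by 1.22 ± 0.13 (SE, edgeR adjusted p = 4.31e-08). In PKP4-KO at 24 h the libraries of both media overlapped, at 60.9, 60.9 and 56.3 and 68.1, 64.2 and 53.6 CPM, and the difference from the WT response is the interaction given above.

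Keap1 was lower in HCM in WT at both times, at -0.56 ± 0.10 (SE, edgeR adjusted p = 0.000297) and -0.58 ± 0.10 (SE, edgeR adjusted p = 0.000143), in PKP4-KO at 72 h, at -0.75 ± 0.11 (SE, edgeR adjusted p = 3.42e-06) and in Rescue at 24 h, at -0.58 ± 0.10 (SE, edgeR adjusted p = 0.000235). In WT it read 48.1, 53.2 and 52.7 CPM in HCM against 74.1, 74.2 and 78.4 in LCM at 24 h, with no overlap. All 4 calls held with the length offset, at -0.50, -0.46, -0.55 and -0.59. Gclc in HCM was lower in WT at 72 h, at -1.79 ± 0.28 (SE, edgeR adjusted p = 1.73e-05), and in PKP4-KO at 72 h, at -1.40 ± 0.28 (SE, edgeR adjusted p = 0.000265). At 24 h in WT it was Txnrd1 and Slc7a11 that were lower in HCM, at -1.23 ± 0.29 (SE, edgeR adjusted p = 0.00294) and -1.17 ± 0.28 (SE, edgeR adjusted p = 0.00366).

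Other responses to calcium were found at 72 h. Hmox1 in WT read 280.4, 263 and 419 CPM in HCM and 105, 77.0 and 97.9 in LCM, higher by 1.78 ± 0.20 (SE, edgeR adjusted p = 1.39e-07), and in PKP4-KO it was higher by 0.78 ± 0.20 (SE, edgeR adjusted p = 0.00317). Gclm in PKP4-KO read 9.90, 12.5 and 12.5 CPM in HCM and 50.4, 44.2 and 58.8 in LCM, lower, at -2.14 ± 0.31 (SE, edgeR adjusted p = 4.79e-06), while in WT its group means were 16.8 and 16.8 CPM. In PKP4-KO, Nfe2l2 and Txnrd1 were lower in HCM too, at -0.66 (adjusted p = 0.00415) and -1.18 (adjusted p = 0.00318) (edgeR). Gsta4 was higher in HCM in WT at 24 h and 72 h, by 0.996 (adjusted p = 0.000672) and 0.75 (adjusted p = 0.00625), and in PKP4-KO at 72 h, by 0.96 (adjusted p = 0.000456), but lower in Rescue at 72 h, at -1.71 ± 0.20 (SE, edgeR adjusted p = 3.40e-07). The Gsta4 call in WT at 72 h was lost with the length offset, at 0.36 (adjusted p = 0.0728), and without HCM replicate 3 or LCM replicate 2 (log2 fold changes 0.58 to 0.62, adjusted p = 0.0574 to 0.0619). Nqo1 was higher in HCM in WT at 72 h, by 0.62 (adjusted p = 0.0241), lost with the length offset at 0.31 (adjusted p = 0.115) and without HCM replicate 3 or LCM replicate 2 or 3 (log2 fold changes 0.44 to 0.64, adjusted p = 0.0534 to 0.183). It was lower in Rescue at 24 h, at -0.63 (adjusted p = 0.0341), and 72 h, at -1.04 (adjusted p = 0.000267). The Nqo1 call in Rescue at 24 h was lost without HCM replicate 1, 2 or 3 or LCM replicate 1, 2 or 3 (log2 fold changes -0.69 to -0.57, adjusted p = 0.0587 to 0.128), that is, in all 6 such fits. Txnrd1 in Rescue at 72 h was higher in HCM by 0.75 (adjusted p = 0.0498). This call was lost without HCM replicate 1, 2 or 3 or LCM replicate 2 or 3 (log2 fold changes 0.50 to 0.84, adjusted p = 0.0619 to 0.271). In PKP4-KO at 72 h the excess of Hmox1 and Gsta4 in HCM was 0.11 (adjusted p = 0.462) and 0.27 (adjusted p = 0.0730) without TMM factors. Nqo1 in WT at 72 h was also not called, at 0.28 (adjusted p = 0.135) without TMM factors and 0.59 (adjusted p = 0.0526) with no filter on low counts. In Rescue at 24 h it was -0.61 (adjusted p = 0.0702) with no filter on low counts and -0.58 (adjusted p = 0.0503) with at least 10 counts in every library. Txnrd1 in Rescue at 72 h was 0.84 (adjusted p = 0.126) without TMM factors, 0.71 (adjusted p = 0.0776) with no filter on low counts, 0.74 (adjusted p = 0.0618) with the replicate block and 0.73 (adjusted p = 0.0675) in a fit of only the groups compared. Hmox1 and Gsta4 in PKP4-KO at 72 h were 0.48 (adjusted p = 0.00356) and 0.41 (adjusted p = 0.0315) with the length offset.

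In edgeR's fit of all 36 libraries, more members were called between the times in PKP4-KO than in WT or Rescue cells. The share of all genes called was also highest in PKP4-KO, and these counts were not tested against each other. At 72 h against 24 h, 9 of 10 were called in PKP4-KO in HCM (4 higher, 5 lower, against 55.8% of all genes, 24.3% higher and 31.4% lower) and 9 in LCM (6 higher, 3 lower, against 26.1% of all genes, 12.4% higher and 13.7% lower). In WT 2 were called in HCM (2 higher, 0 lower, against 17.8% of all genes, 9.16% higher and 8.69% lower) and 3 in LCM (1 higher, 2 lower, against 9.96% of all genes, 5.29% higher and 4.66% lower). Rescue had 3 in HCM (2 higher, 1 lower, against 24.3% of all genes, 13.6% higher and 10.7% lower) and 3 in LCM (3 higher, 0 lower, against 9.81% of all genes, 6.84% higher and 2.96% lower). Without the libraries that stood apart the counts were 8, 9, 4, 6, 8 and 5 in the same order, so PKP4-KO and Rescue were equal in HCM. With the length offset PKP4-KO and Rescue had 6 and 6 in HCM, and with DESeq2 6 and 5. Without TMM factors the share of higher genes among all called went from 43.6 to 12.6% and from 47.6 to 20.9% in PKP4-KO (HCM and LCM) and from 51.3 to 30.0% and 53.2 to 27.3% in WT. Medians of all genes shifted by -1.06, -0.37, -0.24 and -0.22 and at -0.11 in Rescue in LCM.

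Hmox1 rose with time in every genotype and medium, the only member to do so, where 0.728% of all genes rose in all 6 comparisons. In WT in HCM it went from 56.8, 79.8 and 53.2 CPM to 280.4, 263 and 419, and in PKP4-KO in HCM from 40.7, 37.4 and 46.7 to 303, 268 and 272. The groups were far apart in both. On the log2 scale the differences were 2.34 ± 0.21 (SE, edgeR adjusted p = 3.54e-09) and 2.76 ± 0.21 (SE, edgeR adjusted p = 1.41e-11) in HCM, 1.02 (adjusted p = 0.000985) and 1.73 (adjusted p = 1.69e-07) in LCM in the same genotypes, and 1.81 (adjusted p = 1.07e-07) and 1.33 (adjusted p = 1.80e-05) in Rescue in HCM and LCM. All 6 held in each alternative fit, and with the length offset they were 0.94 to 2.24. Srxn1 rose in 4 of the 6 comparisons, by 1.61 (adjusted p = 7.94e-10) in WT in HCM, 1.75 (adjusted p = 9.82e-12) and 0.47 (adjusted p = 0.00703) in PKP4-KO in HCM and LCM, and 0.94 (adjusted p = 4.07e-06) in Rescue in LCM, of which the PKP4-KO one in LCM was lost without 24 h replicate 3 (log2 fold change 0.37, adjusted p = 0.0696). That value was 0.11 (adjusted p = 0.593) without TMM factors and 0.53 (adjusted p = 0.0927) in a fit of only the groups compared.

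In PKP4-KO cells the direction of change with time split by gene. Nqo1 rose from 32.5, 41.9 and 48.6 CPM to 101, 104 and 99.3 in HCM and from 47.6, 41.6 and 38.2 to 73.5, 141 and 96.9 in LCM, and Gsta4 rose alongside. The corresponding log2 fold changes were 1.31 ± 0.20 (SE, edgeR adjusted p = 4.26e-06) and 1.29 ± 0.20 (SE, edgeR adjusted p = 1.60e-05) for Nqo1, and 2.22 ± 0.21 (SE, edgeR adjusted p = 7.23e-10) and 1.23 ± 0.20 (SE, edgeR adjusted p = 2.89e-05) for Gsta4. Gclc and Txnrd1 fell in both media: Gclc, at -2.52 ± 0.29 (SE, edgeR adjusted p = 3.05e-08) and -1.09 ± 0.27 (SE, edgeR adjusted p = 0.00319), and Txnrd1 from 72.4, 64.4 and 42.4 CPM to 9.90, 11.2 and 10.2 in HCM and from 37.2, 72.0 and 80.7 to 25.4, 15.7 and 29.4 in LCM. For Txnrd1 the log2 fold changes were -2.52 ± 0.31 (SE, edgeR adjusted p = 9.66e-08) and -1.43 ± 0.29 (SE, edgeR adjusted p = 0.000381). Slc7a11 fell in LCM only, at -1.23 ± 0.29 (SE, edgeR adjusted p = 0.00162), and Gclm rose in LCM, by 1.08 ± 0.29 (SE, edgeR adjusted p = 0.00606). In HCM, Nfe2l2 at -0.47 (adjusted p = 0.0229), Keap1 at -0.25 (adjusted p = 0.0465) and Gclm at -0.81 (adjusted p = 0.0228) also passed edgeR's test, but none of the 3 did with DESeq2 or with the length offset, where they stood at -0.31 (adjusted p = 0.0813), 0.056 (adjusted p = 0.745) and -0.33 (adjusted p = 0.236). The Keap1 call in HCM was also lost without 24 h replicate 1 or 2 or 72 h replicate 1, 2 or 3 (log2 fold changes -0.28 to -0.20, adjusted p = 0.0597 to 0.158), that of Nfe2l2 without 24 h replicate 1 or 2 or 72 h replicate 1 or 2 (log2 fold changes -0.47 to -0.34, adjusted p = 0.0509 to 0.142), and that of Gclm without 24 h replicate 1 or 2 or 72 h replicate 1 (log2 fold changes -0.76 to -0.69, adjusted p = 0.0633 to 0.0909). Keap1 rose in LCM by 0.31 (adjusted p = 0.0287). This call was lost without 24 h replicate 2 or 3 or 72 h replicate 1 or 2 (log2 fold changes 0.22 to 0.33, adjusted p = 0.0519 to 0.202), and stood at -0.058 without TMM factors. The rise of Nqo1 in HCM was 0.25 (adjusted p = 0.108) without TMM factors, and 0.67 (adjusted p = 0.000214) with the length offset. Gsta4 in HCM was 1.36 (adjusted p = 7.44e-09) with the length offset. Gclc in LCM was -1.02 (adjusted p = 0.0684) in a fit of only the groups compared. The rise of Gclm in LCM was not called, at 0.68 (adjusted p = 0.168) without TMM factors. Keap1 in HCM was also not called, at -0.29 (adjusted p = 0.158) with no filter on low counts, -0.15 (adjusted p = 0.197) with at least 10 counts in every library, -0.25 (adjusted p = 0.0532) with the replicate block, -0.25 (adjusted p = 0.0655) without the 7 libraries and -0.16 (adjusted p = 0.229) in a fit of only the groups compared. In LCM it was 0.30 (adjusted p = 0.223) with no filter on low counts and 0.37 (adjusted p = 0.173) in a fit of only the groups compared.

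In edgeR's fit of all 36 libraries, few members moved with time in the other genotypes beyond Hmox1 and Srxn1. In WT in LCM, Nqo1 fell, at -0.64 ± 0.20 (SE, edgeR adjusted p = 0.0370) and Txnrd1, at -1.06 ± 0.28 (SE, edgeR adjusted p = 0.0143). The Nqo1 call was lost without 24 h replicate 2 or 3 or 72 h replicate 1, 2 or 3 (log2 fold changes -0.69 to -0.55, adjusted p = 0.0723 to 0.140) and the Txnrd1 call without 72 h replicate 1 or 3 (log2 fold changes -1.06 to -0.97, adjusted p = 0.0563 to 0.0790). In Rescue in HCM, Keap1 rose by 0.47 ± 0.10 (SE, edgeR adjusted p = 0.00135) and Gsta4 fell from 2092, 1869 and 1802 CPM to 789.7, 753 and 955, at -1.21 ± 0.20 (SE, edgeR adjusted p = 4.44e-05). In Rescue in LCM, Gsta4 rose by 0.70 ± 0.20 (SE, edgeR adjusted p = 0.0205). This call was lost without 24 h replicate 1 or 2 or 72 h replicate 2 or 3 (log2 fold changes 0.50 to 0.70, adjusted p = 0.0530 to 0.171). Nqo1 in WT in LCM was also not called, at -0.61 (adjusted p = 0.0717) with no filter on low counts. Keap1 in Rescue in HCM was 0.43 (adjusted p = 0.0527) with no filter on low counts. Gsta4 in Rescue in LCM was 0.54 (adjusted p = 0.0670) without the 7 libraries and 0.74 (adjusted p = 0.183) in a fit of only the groups compared.

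**Figure D4:**
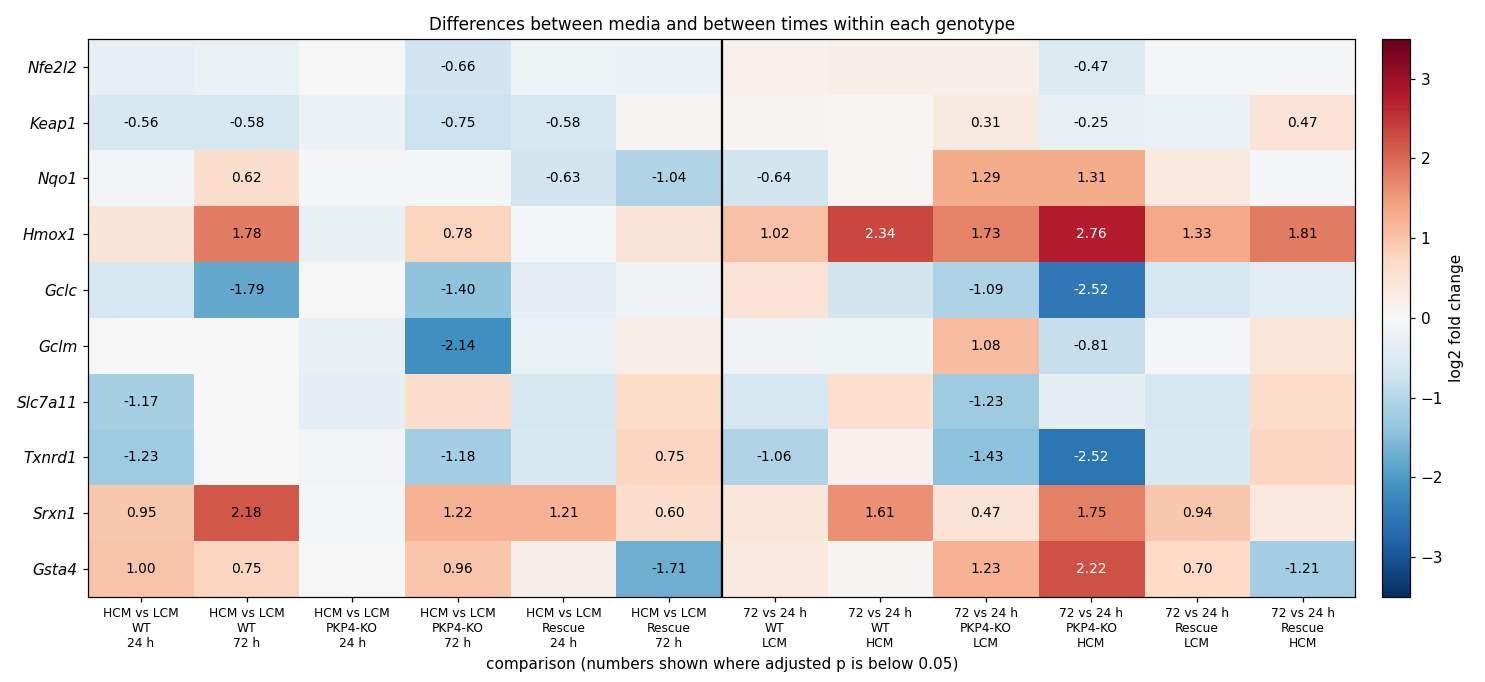
Log2 fold change of each member in HCM against LCM (24 h and 72 h) and at 72 h against 24 h (HCM and LCM) within each genotype, from edgeR's fit of all 36 libraries. Rows are genes, columns comparisons, colour gives the log2 fold change (red higher, blue lower) and a number marks an adjusted p below 0.05. Hmox1 is red with a number in all 6 comparisons of time, and the column of PKP4-KO at 24 h in HCM against LCM holds no number.

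Across the 12 group means the members did not move as one. Of the 45 pairs, 19 had a positive Pearson r of log2 CPM, with a median of -0.0771 and a range from -0.685 (Hmox1 and Gclc) to 0.817 (Txnrd1 and Slc7a11). The 12 points share libraries' depth, scaling and length trend, so these values are a description. The closest other member was Txnrd1 for Nfe2l2 (r = 0.745) and for Slc7a11, Gsta4 for Nqo1 (r = 0.723), Hmox1 for Srxn1 (r = 0.732), Gclm for Keap1 (r = 0.717) and Keap1 for Gclc (r = 0.376). Pairs of 2 short members were positive in 6 of 6 (median 0.567), pairs of 2 long ones in 9 of 15 (median 0.127) and mixed pairs in 4 of 24 (median -0.273). Of 12219 genes, those nearest to Nqo1 over the 12 groups were Icosl (r = 0.884), Angpt2 (0.873), Stk40 (0.847), Arl4d (0.844) and Acsbg1 (0.836), none of them a member.

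Other genes of the pathway were divided too. Of 33 further NRF2 targets (glutathione, thioredoxin, NADPH, detoxification and heme genes), all tested, PKP4-KO against WT had 11 higher and 7 lower at 24 h in HCM, 11 higher and 6 lower at 24 h in LCM, 11 higher and 8 lower at 72 h in HCM and 12 higher and 7 lower at 72 h in LCM. The called share of this list was 54.5, 51.5, 57.6 and 57.6%, beside 42.8, 40.2, 51.8 and 45.1% of all genes (higher calls alone 20.7, 19.7, 21.9 and 21.3% of all genes). Their median log2 fold change was 0.10, 0.10, 0.089 and 0.18. Higher in PKP4-KO in all 4 conditions were Cbr1 (carbonyl reductase), at log2 fold changes of 4.79 to 6.12, Mgst1 and Gstm1 (glutathione transferases), at 1.29 to 2.27 and 0.81 to 1.36, Gss (glutathione synthetase), at 0.57 to 1.23, Prdx1 (a peroxiredoxin), at 0.76 to 1.55, Osgin1, at 0.48 to 1.28, and Tkt (transketolase), at 0.46 to 0.90. Lower in all 4 were the NADPH-forming enzymes G6pdx, at -1.43 to -0.79, Me1, at -3.37 to -0.75, and Idh1, at -1.09 to -0.63, and the glutathione transferase Gsta3, at -3.34 to -1.92. In Rescue against WT, Cbr1 stayed as high, at 5.19, 5.29, 6.67 and 5.13. Gsta3 instead was above PKP4-KO in Rescue, at 2.71, 3.34, 1.65 and 2.90, as was Me1, at 3.59, 2.53, 1.48 and 2.01. Glutathione transferase genes have close paralogs, so reads of Gsta3 and Gstm1 may have been split among them. For these genes and the lists below, values with the length offset or without TMM factors are not given. In PKP4-KO against WT the median of tested genes under 3000 bp was 0.11, 0.28, 0.49 and 0.47 (24 h HCM, 24 h LCM, 72 h HCM and 72 h LCM). For longer genes it was -0.070, -0.14, -0.35 and -0.21. The part of this trend in the listed values was not tested. The heme and iron list held no gene called in the same direction in more than 2 conditions (Fth1, the ferritin heavy chain, lower at -1.38 and -0.58 at 72 h in HCM and LCM).

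Among 8 partners and regulators of NRF2, PKP4-KO against WT had 0 higher and 5 lower at 24 h in HCM, 1 and 4 at 24 h in LCM, 2 and 6 at 72 h in HCM and 2 and 4 at 72 h in LCM. Of all genes, 20.7 and 22.2%, 19.7 and 20.6%, 21.9 and 29.9%, and 21.3 and 23.8% were higher and lower in the same order, and with 8 genes a single gene is a large share of the list. Lower in all 4 conditions were Cul3, which carries the ligase that degrades NRF2, at -2.13 to -0.70, Sqstm1 (p62, which draws KEAP1 into autophagy), at -1.28 to -0.57, the small MAF gene Mafk, at -1.22 to -0.57, and the NRF2 relative Nfe2l1, at -0.99 to -0.27. The other small MAF genes of the list did not follow Mafk. Maff was lower at 24 h in HCM, at -0.75, and higher in the other 3 conditions, at 0.57 to 3.82. Mafg was called only at 72 h in HCM, lower at -0.88. Sqstm1 was higher in Rescue than in PKP4-KO in all 4 conditions, at 1.43, 1.14, 1.63 and 1.64, and so was Nfe2l1, at 1.39, 1.03, 1.21 and 1.72. Of 10 tested antioxidant enzymes outside the NRF2 lists, mitochondrial Sod2 was higher at 0.52 to 0.81 and mitochondrial Prdx3 lower at -1.27 to -0.84 in all 4 conditions of PKP4-KO against WT.

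The 8 genes of the ATF4 stress list, of interest because Slc7a11 belongs to both programmes, were high in Rescue cells. Against WT, 8, 8, 7 and 8 of 8 were higher and none lower at 24 h in HCM, 24 h in LCM, 72 h in HCM and 72 h in LCM. Of all genes 11.8, 13.5, 19.5 and 17.9% were higher there. Trib3, a target of ATF4 and CHOP, stood at 2.67, 3.07, 2.24 and 3.60 on the log2 scale, and Atf4 at 1.08, 1.505, 0.61 and 1.90. PKP4-KO cells had most of them high as well, with 4, 7, 7 and 7 higher than in WT and 1, 0, 1 and 1 lower. For all genes these shares were 20.7, 19.7, 21.9 and 21.3% higher. Atf4 itself stood at 0.45, 1.56, 1.79 and 1.65, and Trib3 at 1.27, 3.23, 3.94 and 3.70. Slc7a11 did not go with them in PKP4-KO against WT. In edgeR's fit of all 36 libraries it was lower at 72 h in LCM and not called in the other conditions. Whether the level of Slc7a11 depends on ATF4 in these cells was not tested. Rescue against PKP4-KO gave 6, 3, 2 and 3 higher with 0, 1, 5 and 0 lower. After 72 h in HCM, where Slc7a11 was also above PKP4-KO, Atf4 was lower in Rescue at -1.18 and Trib3 at -1.70. In that comparison the median of all genes moved by 1.17 without TMM factors. The median of tested genes under 3000 bp was -0.76 there. Values of Atf4 and Trib3 without TMM factors or with the length offset are not given here. The 3 genotype comparisons share their libraries, so these counts are not independent of one another.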

How the data were processed

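RNA of 36 libraries in 12 groups of 3 was analysed from the table of gene counts that the authors deposited, which holds whole-number counts and gene lengths. Per the labels and methods, reads were aligned with HISAT2 2.1.0 to mm39 (GRCm39) with the GFP-PKP4 sequence added, handled with SAMtools 1.10 and counted with featureCounts 2.0.0, and libraries were poly(A)-selected and strand-specific, while the strand setting of the counting is not given in the sources used here. The table lists 37 mitochondrial genes, all at 0 reads.

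Counts were fitted with edgeR 4.0.16 in R 4.3.3 (filterByExpr over the 12 groups, TMM, 1 mean per group, quasi-likelihood test, 24 residual degrees of freedom, Benjamini-Hochberg over 15114 genes, threshold 0.05), because the authors used edgeR with TMM. Standard errors are the absolute log2 fold change divided by the square root of F. Interaction contrasts tested differences between PKP4-KO effects. Depth was 13602728 to 22467187 counts per library, and no pair of libraries within a group agreed within sampling noise. Positions and transcript starts are from GENCODE on GRCm39. The fit was tested on simulated counts for PKP4-KO against WT at 24 h in HCM (13409 genes tested, 200 changed), where 81.0% of changes of 1 and 100% of changes of 2 on the log2 scale were recovered with 15 false calls among 196. The simulation gave every gene the same dispersion and held no length trend and no shift in scaling between groups. It therefore does not speak to those features of the data.

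Alternatives were library sizes without TMM factors, DESeq2 1.42.0, no filter, a filter of at least 10 counts in every library, a fit of only the groups compared, the replicate number as a block, each library left out, and, for PKP4-KO against WT, the median of tested genes within 5 Mb subtracted. An offset for the length trend (a loess curve of each library's log2 deviations on log2 length) and a fit without the 7 libraries that stood apart were chosen after seeing the data. The members and gene lists were chosen with earlier results of these data known. All members are named. From other lists, up to 4 genes called in 1 direction in all 4 conditions of PKP4-KO against WT were eligible, by mean absolute log2 fold change, or where fewer than 2 qualified those called in most conditions. Maff and Mafg were named beside Mafk as the other small MAF genes of their list. Nqo1 was the gene whose nearest genes were sought, over group means of log2(CPM + 0.5), leaving out genes whose mean was below 1 CPM.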

Additional observations from a re-analysis of the deposited data

Results flagged for a closer look

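12 differences between PKP4-KO effects (PKP4-KO against WT) were picked out because an interaction term in edgeR's fit of all 36 libraries passed an adjusted p of 0.05. They are given on the log2 scale as values, and the same 12 values are the interactions in the report. No group was tested for single stray libraries, since all groups held 3.

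In HCM minus LCM at 24 h, the effect on Srxn1 differed with -1.02 ± 0.18 (SE, edgeR adjusted p = 0.000785), called in 12 of 12 fits that left out 1 library. It was not called, at -0.71 (adjusted p = 0.0535) without TMM factors. For Gsta4 the difference was -1.02 ± 0.28 (SE, edgeR adjusted p = 0.0331), called in 7 of 12 such fits and lost without WT HCM replicate 2 or 3, WT LCM replicate 1, PKP4-KO HCM replicate 2 or PKP4-KO LCM replicate 1 (log2 values -1.15 to -0.80 over all such fits). It was also not called, at -1.01 (adjusted p = 0.0735) with no filter on low counts, -0.69 (adjusted p = 0.131) without the 7 libraries and -1.001 (adjusted p = 0.164) in a fit of only the groups compared. At 72 h the difference was -2.15 ± 0.42 (SE, edgeR adjusted p = 0.00146) for Gclm, -0.95 ± 0.18 (SE, edgeR adjusted p = 0.00104) for Srxn1 and -0.999 ± 0.28 (SE, edgeR adjusted p = 0.0279) for Hmox1. The Gclm and Srxn1 terms were called in 12 of 12 and 12 of 12 fits that left out 1 library, and the Hmox1 term in 7 of 12, lost without PKP4-KO HCM replicate 2 or 3, PKP4-KO LCM replicate 2, WT HCM replicate 3 or WT LCM replicate 2 (log2 values -1.12 to -0.77 over all such fits). The latter was also not called, at -0.99 (adjusted p = 0.0506) with no filter on low counts and -0.92 (adjusted p = 0.104) in a fit of only the groups compared.

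In 72 h minus 24 h in HCM, the effect differed for Txnrd1 with -2.67 ± 0.41 (SE, edgeR adjusted p = 1.47e-05), for Gsta4 with 2.11 ± 0.28 (SE, edgeR adjusted p = 1.56e-06), for Gclc with -1.86 ± 0.38 (SE, edgeR adjusted p = 0.000539), for Nqo1 with 1.24 ± 0.28 (SE, edgeR adjusted p = 0.00147) and for Nfe2l2 with -0.68 ± 0.24 (SE, edgeR adjusted p = 0.0381). The first 4 were called in 12 of 12, 12 of 12, 12 of 12 and 12 of 12 fits that left out 1 library, and the Nfe2l2 term in 4 of 12 (log2 values -0.83 to -0.55), lost without replicate 1 or 2 of either PKP4-KO group, replicate 2 or 3 of WT at 24 h, or replicate 1 or 2 of WT at 72 h. It was also not called, at -0.54 (adjusted p = 0.0610) with DESeq2, -0.72 (adjusted p = 0.0731) with no filter on low counts and -0.73 (adjusted p = 0.0533) in a fit of only the groups compared. With the length offset these 5 values were -2.29, 1.60, -1.75, 0.87 and -0.56 in the order given. The Nqo1 term was not called, at 0.43 (adjusted p = 0.0712) without TMM factors. In LCM the effect differed between times for Nqo1 with 1.93 ± 0.28 (SE, edgeR adjusted p = 3.89e-05) and for Gclc with -1.60 ± 0.38 (SE, edgeR adjusted p = 0.00970), called in 12 of 12 and 12 of 12 such fits.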

How the results depend on the processing

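Most values kept their direction and their side of the threshold: over the alternatives other than leaving out a library, the kept values of single members numbered 131 without TMM factors, 152 with DESeq2, 146 with no filter, 154 with at least 10 counts, 159 with the replicate block, 142 with only the groups compared, 142 with the length offset and 145 without the 7 libraries. Of the 141 called values, 20, 6, 15, 2, 2, 17, 9 and 4 calls were lost in that order, and 2 more were called with the other sign without TMM factors. Called values that stayed called with their sign but moved by over 1.5 times numbered 26 without TMM factors, 12 with the length offset and 1 without the 7 libraries. Leaving out 1 library kept 914 values and lost 104 calls.

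Signs turned as follows, as log2 fold changes of PKP4-KO against WT unless named otherwise, and the cause was not tested. With the median of the tested genes within 5 Mb subtracted: Gclc 24 h HCM 0.058, Nfe2l2 24 h LCM 0.37, Keap1 24 h LCM -0.021, Hmox1 24 h LCM -0.23, Srxn1 24 h LCM -0.30, Gsta4 24 h LCM 0.00078, Nfe2l2 72 h HCM 0.37, Gclm 72 h HCM 0.063, Nfe2l2 72 h LCM 0.54 and Srxn1 72 h LCM -0.16. Without the 7 libraries apart in length trend: Nfe2l2 24 h LCM 0.054, Keap1 24 h LCM -0.085, Hmox1 24 h LCM -0.052, Hmox1 72 h HCM 0.065, Nfe2l2 72 h LCM 0.049 and Txnrd1 72 h LCM 0.19. Without TMM factors: Keap1 24 h LCM -0.24, Hmox1 24 h LCM -0.15, Keap1 72 h HCM -0.71, Nqo1 72 h HCM -0.13, Gsta4 72 h HCM -0.12, Keap1 72 h LCM -0.17, Nqo1 Rescue against PKP4-KO at 72 h HCM 0.53, Srxn1 Rescue against PKP4-KO at 72 h HCM 0.61 and Keap1 72 h against 24 h in PKP4-KO LCM -0.058. With at least 10 counts in every library: Keap1 24 h LCM -0.049, Nfe2l2 72 h LCM 0.0018 and Txnrd1 72 h LCM 0.015. In a fit of only the groups compared: Keap1 24 h LCM -0.013 and Txnrd1 72 h LCM 0.0029. With the length offset: Hmox1 24 h LCM -0.10, Slc7a11 72 h HCM 0.35, Txnrd1 72 h LCM 0.32, Gsta4 72 h LCM -0.026, Nqo1 Rescue against PKP4-KO at 72 h HCM 0.17 and Keap1 72 h against 24 h in PKP4-KO HCM 0.056. With DESeq2: Txnrd1 72 h LCM 0.0097. When 1 library was left out, signs turned within these ranges: Gclm 24 h HCM -0.10 to 0.31, Nfe2l2 24 h LCM -0.23 to 0.081, Keap1 24 h LCM -0.057 to 0.090, Hmox1 24 h LCM -0.026 to 0.28, Keap1 72 h HCM -0.058 to 0.11, Hmox1 72 h HCM -0.32 to 0.039, Nfe2l2 72 h LCM -0.18 to 0.060 and Txnrd1 72 h LCM -0.22 to 0.20.

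The number of members called moved by over 1.5 times in these fits. In a fit of only the groups compared, 3 rather than 6 for PKP4-KO against WT, 24 h HCM, 5 rather than 3 for 72 h against 24 h, WT LCM, 7 rather than 3 for 72 h against 24 h, Rescue HCM and 1 rather than 2 for the medium interaction at 24 h. With the length offset, 5 rather than 2 for PKP4-KO against WT, 24 h LCM, 6 rather than 3 for 72 h against 24 h, Rescue HCM, 4 rather than 2 for the medium interaction at 24 h, 6 rather than 3 for the medium interaction at 72 h and 5 rather than 2 for the time interaction in LCM. Without the 7 libraries apart in length trend, 5 rather than 2 for PKP4-KO against WT, 24 h LCM, 7 rather than 3 for HCM against LCM, Rescue 24 h, 4 rather than 2 for 72 h against 24 h, WT HCM, 6 rather than 3 for 72 h against 24 h, WT LCM, 8 rather than 3 for 72 h against 24 h, Rescue HCM, 5 rather than 3 for 72 h against 24 h, Rescue LCM, 5 rather than 3 for the medium interaction at 72 h, 8 rather than 5 for the time interaction in HCM and 6 rather than 2 for the time interaction in LCM. Without TMM factors, 7 rather than 4 for Rescue against WT, 72 h HCM and 8 rather than 5 for the time interaction in HCM. With DESeq2, 5 rather than 3 for 72 h against 24 h, Rescue HCM and 4 rather than 2 for the time interaction in LCM. With at least 10 counts in every library, 5 rather than 3 for 72 h against 24 h, Rescue HCM and 4 rather than 2 for the time interaction in LCM. With no filter, 1 rather than 2 for the medium interaction at 24 h. With 1 library left out the count was 3 to 8 for PKP4-KO against WT at 72 h in HCM (lowest without WT replicate 1 or 2), 4 to 7 for Rescue against WT at 24 h in LCM (lowest without WT replicate 1), 1 to 3 for 72 h against 24 h in WT LCM (lowest without 72 h replicate 1 or 3) and 1 to 2 for the medium interaction at 24 h (lowest without PKP4-KO HCM replicate 2, PKP4-KO LCM replicate 1, WT HCM replicate 2 or 3, or WT LCM replicate 1).

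The replicate numbers were not taken to pair libraries: same-numbered libraries deviated together (r over 0.1 for all 3 numbers) in 3 of 24 comparisons, r ran from -0.764 to 0.774, and 8 of 36 libraries were closest to their own number. With the replicate block 2 member calls were lost, Keap1 at 72 h against 24 h in PKP4-KO HCM, -0.25 (adjusted p = 0.0532), and Txnrd1 in HCM against LCM in Rescue at 72 h, 0.74 (adjusted p = 0.0618), so the counts went to 8 and 3, and the block changed no other member call to not called. Slc7a11, with as few as 46 counts in a library, and Gclm, with as few as 78, had the least depth.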
